A study of Mus musculus with 6 samples.

Results

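Transcripts of DNA replication and repair genes were compared between wild-type (WT) MEFs, fibroblasts from mouse embryos, and MEFs without Yme1l (Yme1l-/-). The set was given as a list of 43 gene symbols. Of these, 40 were found by symbol among the 51499 loci of the count table, each as a locus of its own, and all 40 passed the filter on low counts that left 13867 loci. Cdt1, Gins2 and Fanca were not analysed here. The members were read in 9 roles: origin licensing, the MCM2-7 helicase, helicase activation, polymerases and primase, the clamp and its loader, Okazaki fragment maturation, replication protein A, recombination with crosslink and mismatch repair, and checkpoint kinases.

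Poly(A) RNA of 3 WT and 3 Yme1l-/- cultures was sequenced. YME1L, the product of Yme1l1, is a protease that uses ATP and sits in the inner membrane of mitochondria. All cells came from embryos with loxP-flanked Yme1l alleles (Yme1l fl/fl in the labels of the WT cultures) and were immortalized with SV40 large T antigen. Yme1l was deleted with Cre, and lines of either genotype were isolated as clones. The count columns of all 3 WT cultures share the name WT2, and those of all 3 Yme1l-/- cultures the name YKO. What these names stand for, and how many clones stand behind the 3 cultures of a genotype, is not stated. Genotype and clone therefore cannot be told apart, and p-values measure the spread between these cultures. Large T antigen is known to bind the retinoblastoma family and p53, which otherwise restrain entry into S phase, and both genotypes carry it. The labels name no age, passage, batch or cell cycle stage. Libraries held 33180867 to 49351107 counted fragments, with the deepest being Yme1l-/- replicates 2 and 3. Yme1l1 itself fell from 188.7 ± 5.16 CPM (counts scaled to a common library size, mean ± SD, n = 3) to 39.1 ± 1.34 (log2 fold change -2.27 ± 0.05 SE, edgeR adjusted p = 2.43e-11). Of 8 fibroblast markers, Col1a1, Col1a2, Vim and Fn1 were each at or above 1010 CPM in all libraries, Pdgfrb and S100a4 lay between 52.9 and 132.7 CPM, Col3a1 between 27.4 and 301.2 CPM with WT replicate 2 far above the rest, and Thy1 at or below 0.183 CPM. Col1a1 rose by 0.43, and the other 6 that were tested fell, from Pdgfrb (log2 fold change -0.34) to Vim (-1.33) and Col3a1 (-2.48), and the part of this in the members' changes was not tested. The endothelial and haematopoietic markers lay at or below 3.91 CPM, with Adgre1 at 0. Of 5 epithelial markers, 4 lay at or below 1.51 CPM, and Krt18 stood at 31.0 to 33.2 CPM in WT and at or below 0.0589 in Yme1l-/-.

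A chromosome is copied from origins. The origin recognition complex (ORC) and CDC6 load the ring-shaped MCM2-7 helicase in G1 phase, and CDC45 and the GINS complex join the ring to make it active in S phase. Primase and polymerase alpha then start each strand, polymerases delta and epsilon extend it on the PCNA clamp that replication factor C loads, replication protein A coats the exposed single strands, and FEN1 and LIG1 join the lagging-strand fragments. BRCA1, BRCA2, the Fanconi proteins, mismatch repair proteins and the kinases ATM, ATR and CHK1 act where the copying stalls or errs. Many of these genes are transcribed at the G1/S boundary through E2F factors, which bind short words close to the start. In bulk RNA, a lower level cannot be told apart from a smaller share of cells in S phase.

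The E2F-type words TTTCCCGC, TTTCGCGC, TTTGCCGC and TTTGGCGC were looked for on both strands in the 250 bases before the transcription start, in the RefSeq promoters of build GRCm38.p6. A promoter was found for 33 of the 40 members, and 9 of these (27.3%) held a word, against 583 of 27025 genes (2.16%). Of the further replication and repair genes described below, 84 had a promoter, and 11 of these (13.1%) held a word. The 9 members with a word were Orc1, Cdc6, Mcm5, Mcm6, Mcm7, Gins3, Pola1, Rfc3 and Brca2. The stretches of Mcm5, Mcm6 and Mcm7 are printed because these subunits of a single ring carry words, and those of Cdc6 and Brca2 because they are the word-carrying members with the highest and the lowest fold change. Each is read 5′ to 3′ on the strand of its gene, and capitals mark the words, which overlap in Mcm5 and in the first run of Mcm6.
Mcm5: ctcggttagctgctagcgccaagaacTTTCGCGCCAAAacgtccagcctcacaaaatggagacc
Mcm6: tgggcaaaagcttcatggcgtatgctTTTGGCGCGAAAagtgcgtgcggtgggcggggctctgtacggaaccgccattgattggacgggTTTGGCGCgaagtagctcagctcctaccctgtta
Mcm7: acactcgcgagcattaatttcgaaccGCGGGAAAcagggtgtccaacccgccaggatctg
Cdc6: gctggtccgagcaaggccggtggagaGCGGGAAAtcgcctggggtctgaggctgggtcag
Brca2: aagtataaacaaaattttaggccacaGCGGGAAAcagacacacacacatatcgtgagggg
The Mcm5 stretch lies at chr8:75109330-75109393 on the plus strand, upstream of the annotated gene, with its words starting 153 and 149 bases before the start. In Mcm6 (chr1:128359719-128359841, minus strand, upstream of the gene) the 3 words begin between 110 and 47 bases before the start. The Mcm7 stretch (chr5:138172015-138172074, minus strand) overlaps an annotated exon of Mcm7, because other transcripts of the gene start further upstream. That of Cdc6 (chr11:98907987-98908046, plus strand) lies within the annotated gene and outside its exons, and that of Brca2 (chr5:150522427-150522486, plus strand) lies upstream of the gene. The median log2 fold change was -0.01 over the 9 members with a word and 0.08 over the 24 without. A word of this kind is a description of the sequence, and no binding was measured.

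Across the set, 17 of the 40 members were higher in Yme1l-/- cells (42.5%) and 7 were lower (17.5%), at an adjusted p under 0.05 in edgeR's quasi-likelihood test over all loci. The same call was made for 67.7% of all tested loci, 33.6% higher and 34.1% lower, so the genotypes differed broadly and a call by itself says little about the members. Changes within the set were small. No member changed 2-fold or more, whereas 17.7% of all loci were called with a change of at least 2-fold, and 7.13% of the 7549 loci at least as abundant as the lowest member (mean of 20.4 CPM). The median absolute log2 fold change was 0.19 over the members, 0.38 over all loci and 0.31 over the 7549 loci at or above the lowest member. That bound is a floor, and these loci were not matched to the members in abundance. The median signed log2 fold change was 0.08 over members (from -0.66 to 0.77) and 0.00 over all loci.

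**Figure D1:**
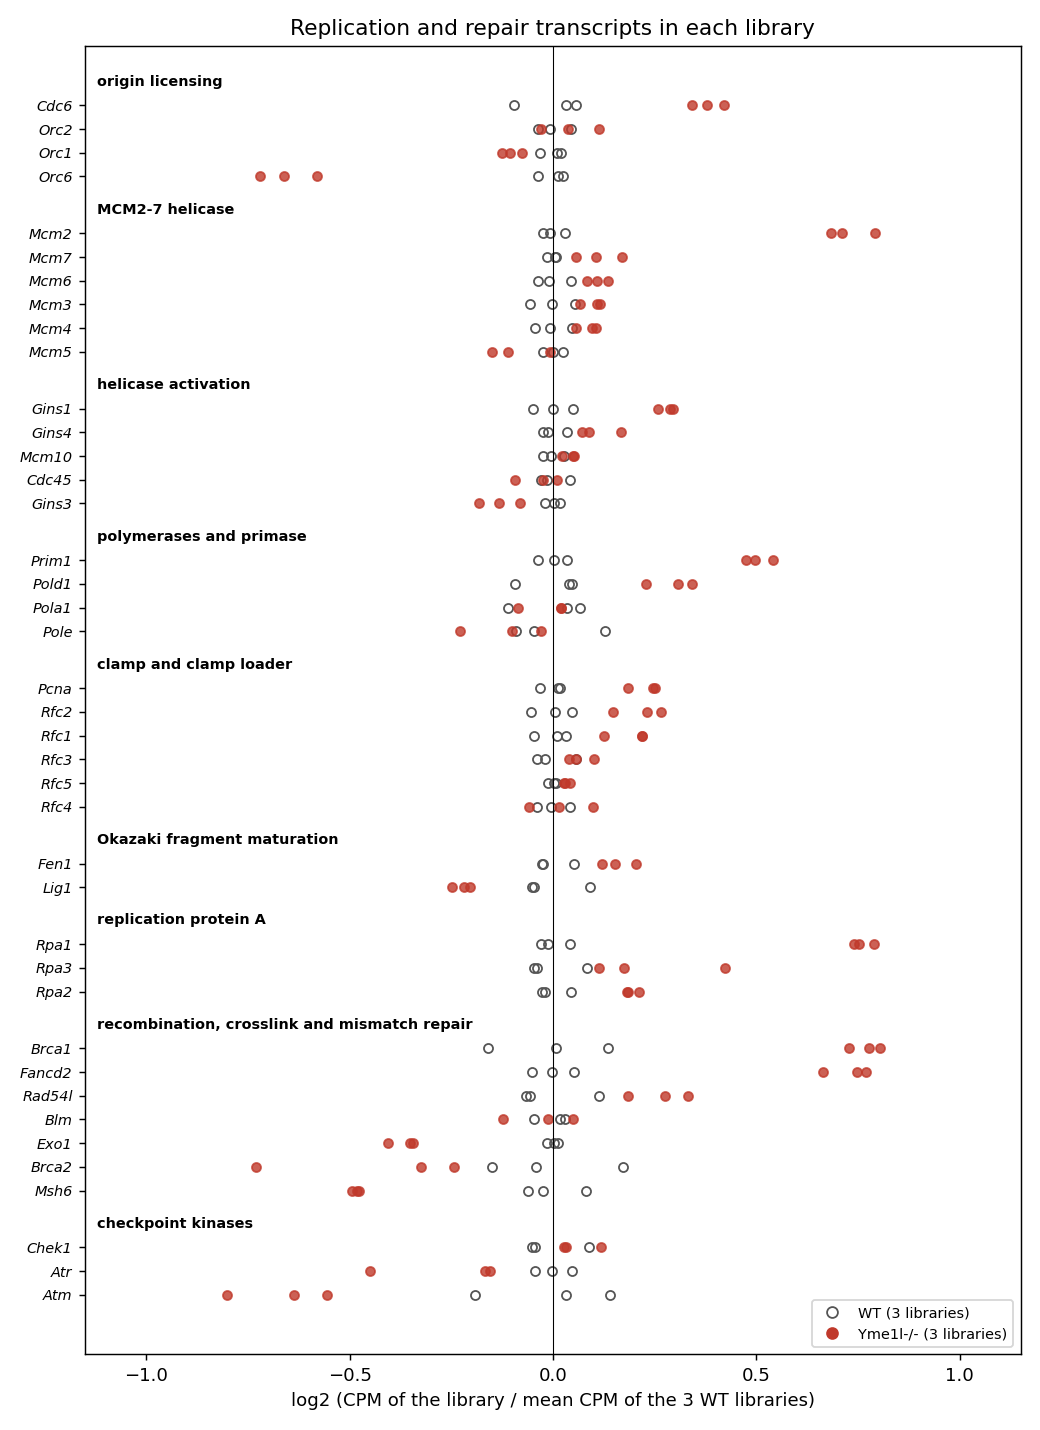
Each point is the log2 ratio of a library's CPM to the mean CPM of the 3 WT libraries (x axis), with WT as open and Yme1l-/- as filled circles, for the 40 members grouped by role (y axis). In most rows the filled points lie within 0.5 of the line at 0, and by the mean of the 3 filled points Mcm2, Rpa1, Brca1 and Fancd2 on the right and Orc6 and Atm on the left stand furthest from it. A single Brca2 point, Yme1l-/- replicate 1, also lies far to the left.

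Replicates lay close together. Counts per member and library ran from 590 to 30469, and the median coefficient of variation was 3.02% in WT and 3.57% in Yme1l-/- cells. With this spread the 3 Yme1l-/- libraries lay above all 3 WT libraries for 21 members and below them for 9, and the genotypes overlapped for 10. Of all loci 71.9% did not overlap, 35.9% with Yme1l-/- above WT and 36% with Yme1l-/- below. The assembled loci of 13 members contain another coding gene, on the same strand for Orc2, Mcm7 and Atr, and each of these neighbours has a locus of its own. In their own loci, Ppil3, the neighbour of Orc2, was at -0.03 ± 0.07, and Taf6, that of Mcm7, fell by 0.26 ± 0.05. Of the 40 members 24 were called in the main fit, and 15 of these in each of 14 alternative fits as well. Of these 15, Mcm2, Prim1, Pold1, Pcna, Rfc1, Rfc2, Rpa1, Brca1, Rad54l and Fancd2 were higher, and Orc6, Lig1, Exo1, Msh6 and Atm were lower. Of all 13867 loci 9387 were called in the main fit, and 5839 (42.1% of all) in each of the 15 fits. Only 7 members passed an absolute log2 fold change of 0.5, namely Brca1, Rpa1, Fancd2, Mcm2 and Prim1 upwards and Atm and Orc6 downwards.

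Of the 4 licensing genes measured, 1 rose and 1 fell. Cdc6, which encodes the ATPase that recruits the helicase to ORC, stood at 52.8, 57.8 and 58.7 CPM in WT and at 71.6, 73.4 and 75.6 CPM in Yme1l-/- cells, without overlap (log2 fold change 0.38 ± 0.05, adjusted p = 5.50e-05). Cdc6 lies on chromosome 11, where the median of all loci was 0.36, and once chromosome medians were removed its difference was 0.03 ± 0.05 (adjusted p = 0.693). Orc6, the smallest ORC subunit, stood at 156.7, 158.0 and 151.3 CPM in WT and at 103.8, 94.3 and 98.2 CPM in Yme1l-/- cells. Its fall, by 0.65 ± 0.05 on the log2 scale (adjusted p = 4.20e-07), was the largest in this role. The assembled locus of Orc6 is 47887 bases long, against 8647 for the annotated gene (chr8:85299632-85308278, plus strand), and reaches across Vps35 on the other strand, a retromer gene with a locus of its own that fell by 0.67 ± 0.05. Whether counting used strand is not stated, so reads from Orc6 and Vps35 cannot be told apart where they overlap. Orc1 (log2 fold change -0.10 ± 0.05, adjusted p = 0.0980) and Orc2 (0.04 ± 0.05, adjusted p = 0.489), which encode other subunits of the complex, were not called. The log2 ratio of Orc6 to Orc2 within each library was 0.47 ± 0.02 (SD, n = 3) in WT and -0.22 ± 0.06 in Yme1l-/- cells, without overlap, a difference of -0.69 ± 0.04 that was -0.53 with chromosome medians removed.

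Mcm2 stood out among the 6 subunits of the helicase ring. Its transcript (chr6:88883474-88898780, minus strand) stood at 363.3, 367.4 and 377.3 CPM in WT and at 639.4, 604.3 and 592.9 CPM in Yme1l-/- cells, so that the lowest Yme1l-/- library was far above the highest WT library (1.66-fold, log2 fold change 0.73 ± 0.05, adjusted p = 1.34e-07). Mcm5, the partner of MCM2 at the gate of the ring, stood at 374.2, 367.6 and 380.2 CPM in WT and at 372.2, 346.6 and 337.0 CPM in Yme1l-/- cells. The genotypes overlapped for Mcm5 (log2 fold change -0.09 ± 0.05, adjusted p = 0.120), which became 0.23 ± 0.05 (adjusted p = 0.00138) with chromosome medians removed and -0.13 ± 0.04 (adjusted p = 0.0148) without Yme1l-/- replicate 1. Mcm6 (0.11 ± 0.04, adjusted p = 0.0357) and Mcm7 (0.11 ± 0.04, adjusted p = 0.0450) were called at 1.08-fold each. The Mcm7 call was lost in 5 of the 6 fits without 1 library (adjusted p of 0.080 to 0.123 there), all except the one without Yme1l-/- replicate 3, and the Mcm6 call in 4 of them (adjusted p of 0.0877 to 0.129, without WT replicate 1 or 2 or Yme1l-/- replicate 2 or 3). Scaling with RLE size factors also ended the Mcm7 call (adjusted p = 0.0525), and a fit to all loci of at least 1 count ended both (adjusted p = 0.113 for Mcm7 and 0.0976 for Mcm6). Mcm3 (0.10 ± 0.04) and Mcm4 (0.09 ± 0.04) were not called in the main fit, with adjusted p of 0.0685 and 0.0900. Mcm3 was called without WT replicate 3 (0.12 ± 0.05, adjusted p = 0.0422), and with upper-quartile scaling Mcm3 and Mcm4 were called at 0.16 and 0.15 (adjusted p = 0.00893 and 0.0103).

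Ratios between subunits were taken within each library. The log2 ratio of Mcm2 to Mcm5 was -0.02 ± 0.02 (SD, n = 3) in WT and 0.80 ± 0.02 in Yme1l-/- cells, a difference of 0.82 ± 0.02 (SE). Against Mcm3, Mcm4, Mcm6 and Mcm7 the log2 ratio of Mcm2 was higher in Yme1l-/- cells by 0.62 to 0.64. Once the medians of the chromosomes were subtracted, the difference was 0.16 against Mcm5 and 0.12 to 0.29 against the other subunits. The 3 libraries of each genotype did not overlap for any of these ratios, and the exact two-sided permutation test gave p = 0.1, the smallest that 3 against 3 cultures allow (0.106 after Benjamini-Hochberg adjustment over 19 ratios), so no ratio could pass the threshold. Ratios of other subunits differed less, by 0.20 ± 0.02 for Mcm7 to Mcm5 and by -0.19 ± 0.05 for Mcm5 to Mcm3 (-0.13 and -0.03 with the medians subtracted). On the per-length scale of the authors' combined FPKM, the 6 subunits lay within 2.23-fold of each other in WT and 2.22-fold in Yme1l-/- cells. On that scale Mcm7 was highest in WT (176.7 FPKM) and Mcm4 lowest (79.2), and Mcm2 moved from 111.9 to 186.5 FPKM, just below the 187.3 of Mcm7 in Yme1l-/- cells.

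**Figure D2:**
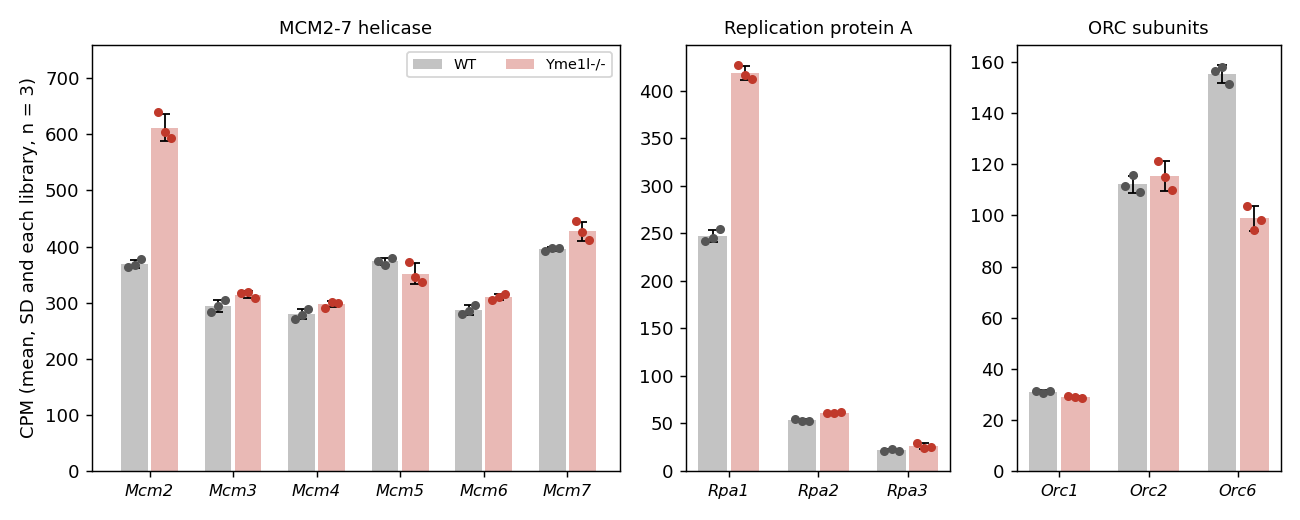
Bars give the mean CPM of 3 libraries per genotype (y axis, from 0) with the SD, and points the single libraries, for subunits of the MCM2-7 helicase, replication protein A and ORC. CPM is not scaled to transcript length, so bars are to be compared between genotypes and not between genes. Mcm2 and Rpa1 stand above WT and Orc6 below it, and the subunits beside them changed by at most 0.24 on the log2 scale.

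Of the 5 genes measured that turn the loaded ring into a running helicase, 1 was called. Gins1, a GINS subunit, was at 17.8, 18.4 and 19.1 CPM in WT and 22.1, 22.6 and 22.5 CPM in Yme1l-/- cells (log2 fold change 0.28 ± 0.06, adjusted p = 0.00145). With the length trend removed it was at 0.13 ± 0.07 and not called (adjusted p = 0.126). Gins3, another subunit of the same complex, lay at 25.01, 25.7 and 25.4 CPM in WT and 24.0, 22.4 and 23.1 CPM in Yme1l-/- cells. All 3 Yme1l-/- libraries were below WT, and the difference was not called (-0.13 ± 0.06, adjusted p = 0.0583). It was called without Yme1l-/- replicate 1 (-0.16 ± 0.06, adjusted p = 0.0379), and with chromosome medians removed it was 0.18 ± 0.06 (adjusted p = 0.0150). Gins4 was at 0.11 ± 0.05 (adjusted p = 0.0631), Cdc45 at -0.04 ± 0.05 (adjusted p = 0.525) and Mcm10, a factor that activates the assembled helicase, at 0.04 ± 0.04 (adjusted p = 0.420), none of them called in the main fit. Gins4 was called with upper-quartile scaling (0.17 ± 0.05, adjusted p = 0.00963) and with chromosome medians removed (0.42 ± 0.05, adjusted p = 1.50e-05), and with the length trend removed Cdc45 was called at -0.13 ± 0.04 and Mcm10 at 0.10 ± 0.04 (adjusted p = 0.0135 and 0.0437).

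Of the 4 polymerase and primase genes measured, 2 rose. Prim1, the catalytic subunit of primase (chr10:128015168-128030037, plus strand), stood at 146.9, 151.0 and 154.4 CPM in WT and at 219.5, 209.5 and 213.0 CPM in Yme1l-/- cells, without overlap (log2 fold change 0.51 ± 0.04, adjusted p = 8.78e-07). With chromosome medians removed it was at 0.21 ± 0.04, below Pold1 at 0.30 ± 0.05. Pola1, the catalytic subunit of polymerase alpha that works in the same complex, was at -0.01 ± 0.06 (adjusted p = 0.836), and the log2 ratio of Prim1 to Pola1 was higher by 0.52 ± 0.07, without overlap. With chromosome medians removed Pola1 was at 0.20 ± 0.06 (adjusted p = 0.0104), and the difference in the ratio was 0.01. Pold1, the catalytic subunit of polymerase delta, rose by 0.29 ± 0.05 (adjusted p = 0.000449). Pole, that of polymerase epsilon, lay at 231.0, 238.3 and 269.1 CPM in WT and at 210.2, 241.1 and 229.5 CPM in Yme1l-/- cells, with overlap (-0.12 ± 0.07, adjusted p = 0.140).

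Of the clamp and its loader, Pcna and the loader subunits Rfc1 and Rfc2 rose. Pcna was at 340.6, 328.9 and 339.5 CPM in WT and at 400.4, 382.0 and 398.8 CPM in Yme1l-/- cells, a rise of 1.17-fold without overlap (log2 fold change 0.23 ± 0.04, adjusted p = 0.000502). With the transcript length trend removed it was at 0.09 ± 0.04 (adjusted p = 0.0489). It had the highest FPKM of the members in WT (246.8, and 289.9 in Yme1l-/- cells by the authors' values). The pseudogene Pcna-ps2 has its own locus with 93 to 208 counts per library, against 10768 to 20317 for Pcna. Rfc2 rose by 0.22 ± 0.05 and Rfc1, the largest loader subunit, by 0.19 ± 0.04, with adjusted p of 0.00237 and 0.00266. Rfc3 (0.07 ± 0.05), Rfc5 (0.03 ± 0.04) and Rfc4 (0.02 ± 0.05) were not called, and Rfc5 was called in none of the 15 fits. Rfc4 lay at 47.0, 45.9 and 48.5 CPM in WT and at 50.5, 47.6 and 45.3 CPM in Yme1l-/- cells, with the WT values inside the range of the others.

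The enzymes that finish the lagging strand moved in opposite directions. Fen1, the flap nuclease, was at 135.2, 128.1 and 128.3 CPM in WT and at 150.3, 145.1 and 141.9 CPM in Yme1l-/- cells (log2 fold change 0.16 ± 0.04, adjusted p = 0.00832). Lig1, the ligase, was at 155.2, 155.8 and 171.4 CPM in WT and at 139.5, 138.2 and 135.4 CPM in Yme1l-/- cells, a fall by 0.22 ± 0.05 (adjusted p = 0.00173). Neither gene's libraries overlapped between the genotypes, and the log2 ratio of Fen1 to Lig1 was -0.30 ± 0.11 (SD, n = 3) in WT and 0.08 ± 0.02 in Yme1l-/- cells, a difference of 0.38 ± 0.06 (0.26 with chromosome medians removed). With chromosome medians removed, Fen1 was at 0.04 ± 0.04 (adjusted p = 0.415) while Lig1 was still called at -0.21 ± 0.05 (adjusted p = 0.00270).

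All 3 subunits of replication protein A were called higher, by unequal amounts. Rpa1, the large DNA-binding subunit (chr11:75298166-75348324, minus strand), stood at 242.2, 245.1 and 254.4 CPM in WT and at 427.0, 416.8 and 412.7 CPM in Yme1l-/- cells, 1.69-fold higher (log2 fold change 0.76 ± 0.04, adjusted p = 3.06e-08). Rpa2, the subunit that checkpoint kinases phosphorylate, was at 55.2, 52.8 and 52.5 CPM in WT and at 60.7, 60.9 and 62.0 CPM in Yme1l-/- cells (0.19 ± 0.04, adjusted p = 0.00249), and it was not called with the length trend removed (0.07 ± 0.04, adjusted p = 0.135). Rpa3, the small subunit, was at 0.24 ± 0.08 (adjusted p = 0.0250), which was not called without WT replicate 1 or 3 or without Yme1l-/- replicate 1 (adjusted p of 0.070 to 0.0756) and was -0.10 ± 0.08 with chromosome medians removed. Without Yme1l-/- replicate 1 the Rpa3 value was 0.15 ± 0.07. The log2 ratio of Rpa1 to Rpa2 was higher by 0.57 ± 0.05 and that of Rpa1 to Rpa3 by 0.53 ± 0.10, both without overlap, and that of Rpa2 to Rpa3 differed by -0.04 ± 0.11 (exact permutation p = 0.8). With chromosome medians removed these differences were 0.11, 0.51 and 0.40.

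The repair genes held both the highest and some of the lowest values. Brca1, the tumour suppressor of homologous recombination (chr11:101488764-101551955, minus strand), stood at 69.2, 77.6 and 84.9 CPM in WT and at 127.8, 132.4 and 134.8 CPM in Yme1l-/- cells, 1.71-fold higher (log2 fold change 0.77 ± 0.07, adjusted p = 1.51e-06). Fancd2, the Fanconi protein that is ubiquitylated at crosslinks (chr6:113531682-113597017, plus strand), stood at 48.6, 50.2 and 52.2 CPM in WT and at 79.8, 85.8 and 84.6 CPM in Yme1l-/- cells (0.73 ± 0.05, adjusted p = 2.05e-07). Rad54l, a motor protein of recombination, rose by 0.27 ± 0.06 (adjusted p = 0.00260). In each of the 3 the Yme1l-/- libraries lay above WT.

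In the same role Msh6, Brca2 and Exo1 fell. Msh6, a mismatch recognition gene (chr17:87975062-87990892, plus strand), was at 174.2, 178.9 and 192.4 CPM in WT and at 129.1, 130.6 and 130.2 CPM in Yme1l-/- cells, a fall by 0.48 ± 0.05 (adjusted p = 3.29e-06). Its assembled locus runs over 90242 bases, against 15831 for the gene, and includes Fbxo11 on the other strand, which fell by 0.56 ± 0.05 in its own locus, and reads of both genes likewise cannot be told apart. Exo1, the exonuclease of mismatch repair and end resection (chr1:175880581-175913489, plus strand), fell by 0.37 ± 0.04 (adjusted p = 1.97e-05). Brca2, a mediator of homologous recombination, was at 48.2, 51.9 and 60.2 CPM in WT and at 32.2, 45.1 and 42.7 CPM in Yme1l-/- cells. The Brca2 libraries did not overlap, with a fall by 0.41 ± 0.14 (adjusted p = 0.0347), and the call was lost without WT replicate 2 or 3 or Yme1l-/- replicate 3 (adjusted p of 0.0605 to 0.0863) and with upper-quartile scaling (adjusted p = 0.0608), and with all loci of at least 1 count kept (adjusted p = 0.136). Brca1 and Brca2 thus moved apart, and their log2 ratio was 0.53 ± 0.04 (SD, n = 3) in WT and 1.72 ± 0.22 in Yme1l-/- cells, 2.29-fold higher without overlap, with a log2 difference of 1.19 ± 0.13 (0.85 with chromosome medians removed). Blm, a helicase that dissolves recombination intermediates, was at -0.03 ± 0.05 (adjusted p = 0.697) and was called in no fit.

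Of the checkpoint kinases, Atm and Atr fell and Chek1 was not called. Atm, the kinase that responds to double-strand breaks (chr9:53439149-53536740, minus strand), was at 107.8, 125.8 and 135.8 CPM in WT and at 70.6, 83.7 and 79.2 CPM in Yme1l-/- cells, a fall by 0.66 ± 0.09 without overlap (adjusted p = 0.000111). Atr, the kinase of stalled forks, fell by 0.25 ± 0.07 (adjusted p = 0.0108). Its value was 0.11 ± 0.07 (adjusted p = 0.211) with chromosome medians removed, and its assembled locus includes Xrn1 on the same strand, an exonuclease gene that fell by 0.64 ± 0.11 in its own locus. Chek1, which encodes the kinase CHK1 downstream of ATR, lay at 37.9, 41.6 and 37.7 CPM in WT and at 39.95, 39.8 and 42.4 CPM in Yme1l-/- cells, with overlap (0.06 ± 0.06, adjusted p = 0.362). Once chromosome medians were removed, Chek1 was called at 0.42 ± 0.06 (adjusted p = 6.02e-05) and Atm at -0.30 ± 0.09 (adjusted p = 0.0148), with a median of 0.11 over the 3 kinases.

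The members' fold changes followed those of their chromosomes in part. The median log2 fold change of all tested loci differed between chromosomes, from -0.44 on chromosome 12 to 0.59 on chromosome 15. It was 0.34 on chromosome 6, 0.36 on chromosome 11 and 0.30 on chromosome 10, the chromosomes of Mcm2, Fancd2, Rpa3, Rpa1, Brca1, Cdc6 and Prim1, and -0.32 on chromosome 8 and -0.36 on chromosome 9, the chromosomes of Orc6, Mcm5, Gins3, Gins4, Atm, Atr and Chek1. All 6 members on chromosomes 6 and 11 were called higher, as were 61.4% of all loci on these chromosomes. Of the 7 on chromosomes 8 and 9, 3 were called lower and 0 higher, against 59.9% and 13.4% of all loci there. Over the 40 members, the fold change and the median of the chromosome had a Spearman correlation of 0.55 and a Pearson correlation of 0.68, given as a description because members of a chromosome share its median. Of the 40 members 24 had the sign of their chromosome median, and of the 24 called members 16 had it. The same share over all loci was not taken, so these counts are a description only. The part of these chromosome-wide differences in the members' changes was not tested beyond subtracting the medians.

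**Figure D3:**
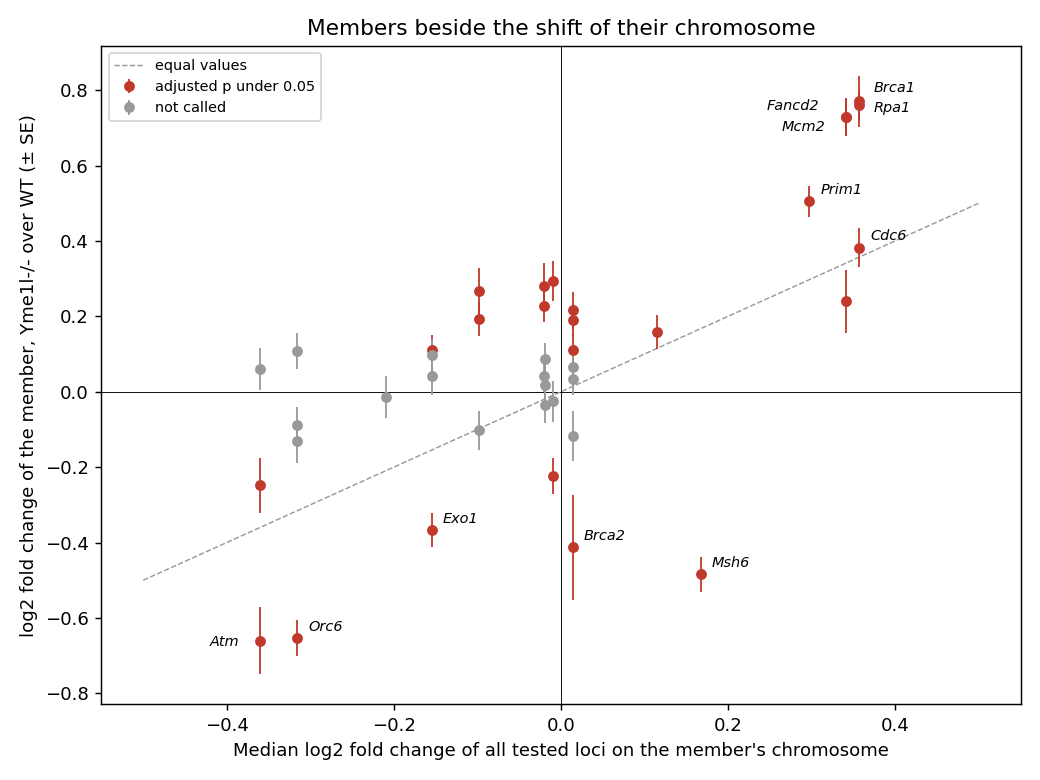
Each point is a member, with its log2 fold change ± SE (y axis) against the median log2 fold change of all tested loci on its chromosome (x axis), red where the adjusted p was under 0.05. Points on the dashed line changed as much as the median locus of their chromosome, and Cdc6 lies near it, whereas Brca1, Rpa1, Fancd2 and Mcm2 lie above it and Msh6, Brca2, Exo1, Atm and Orc6 below it.

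With the median of each chromosome removed, 21 members were called higher and 6 lower, against 31.1% and 31.7% of all loci, and 19 of the 24 called members kept their call and sign. The 5 that did not were Cdc6, Mcm7, Fen1, Rpa3 and Atr. The share of all called loci that kept call and sign was not taken. The largest rises were smaller on this scale, at 0.39 ± 0.05 for Mcm2, 0.40 ± 0.04 for Rpa1, 0.41 ± 0.07 for Brca1 and 0.39 ± 0.05 for Fancd2. The falls of Orc6 (-0.34 ± 0.05), Atm (-0.30 ± 0.09) and Exo1 (-0.21 ± 0.04) were also smaller, the rises of Mcm6 (0.26 ± 0.04) and Rpa2 (0.29 ± 0.04) were larger, and the fall of Msh6, whose chromosome 17 had a median of 0.17, was larger (-0.65 ± 0.05). On this scale 8 members not called in the main fit were called, all higher, among them Gins4 (0.42 ± 0.05), Chek1 (0.42 ± 0.06) and Mcm3 (0.25 ± 0.04). Of the 6 helicase subunits, 5 were then called higher and 0 lower.

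Transcript length moved with the libraries. The longest annotated coding transcripts of the members run from 670 bases (Rpa3) to 10724 bases (Brca2), and within a genotype the deviation of a library from the mean of its genotype followed this length. The Spearman correlation over the 40 members was -0.53 in WT replicate 1, 0.04 in replicate 2 and 0.51 in replicate 3, and -0.63, 0.60 and 0.49 in Yme1l-/- replicates 1 to 3. Of the 6 members over 6 kb, 5 were lowest in replicate 1 of both genotypes. All loci over 6 kb showed the same, with a median deviation of -0.05 in WT replicate 1 and -0.09 in Yme1l-/- replicate 1, and of 0.05, 0.05 and 0.04 in WT replicate 3 and Yme1l-/- replicates 2 and 3. Between the genotypes, the median log2 fold change of all loci went from 0.13 under 2 kb to -0.19 over 6 kb. A fit with the length trend of each library removed gave 13 members higher and 11 lower (33.4% and 36.2% of all loci). In that fit the calls of Mcm7, Gins1, Fen1, Rpa2, Rpa3 and Atr were lost and 18 of 24 were kept, among them Atm at -0.48, Brca1 at 0.91, Brca2 at -0.23, Exo1 at -0.22 and Pcna at 0.09. Another 6 members were called in that fit and not in the main fit, with Orc1, Mcm5, Cdc45, Gins3 and Rfc4 lower and Mcm10 higher. The share of all called loci that kept their call was not taken. The longest annotated transcript need not be the one expressed. In WT, Exo1 (7796 bases) was at 64.2 CPM and 37.4 FPKM, and Atm (9819 bases) at 123.1 CPM and 12.5 FPKM. Rfc2 (4995 bases) was at 96.2 CPM and 98.4 FPKM, and Rfc1 (4751 bases) at 190.5 CPM and 45.2 FPKM. The lengths used for Exo1 and Rfc2 may therefore be too long.

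**Figure D4:**
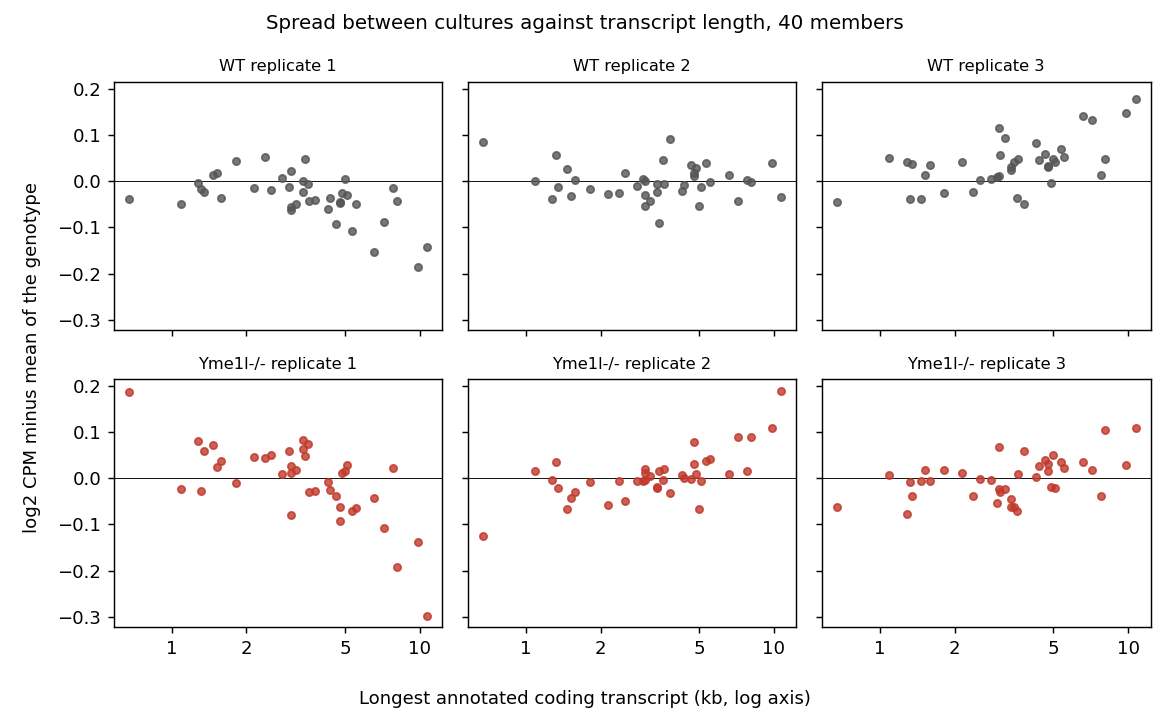
Each panel is a library, and each point a member, with the deviation of its log2 CPM from the mean of its genotype (y axis) against the length of its longest annotated coding transcript (x axis, log scale, kb). Of the 6 transcripts over 6 kb, all except Exo1 lie below 0 in replicate 1 of both genotypes and above 0 in WT replicate 3 and Yme1l-/- replicates 2 and 3, whereas Exo1 is at 0.02 in Yme1l-/- replicate 1 and -0.04 in replicate 3.

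Other genes of the same pathways were also called in both directions. Of 109 further replication and repair genes listed, 107 loci passed the filter, and 46 of them rose (43%) and 32 fell (29.9%), against 33.6% and 34.1% of all loci. Changes of 2-fold or more were called for 4 of them, against 17.7% of all loci, and the median log2 fold change was 0.09. The 4 highest were Recql4, a helicase of replication initiation (33.2 ± 2.00 to 75.8 ± 1.39 CPM, log2 fold change 1.19), the Fanconi core gene Fancg (7.01 ± 0.31 to 15.7 ± 1.10, 1.16), Dscc1, part of an alternative clamp loader (10.3 ± 0.26 to 22.6 ± 0.54, 1.13), and Tonsl, a fork repair factor (60.6 ± 2.53 to 122.2 ± 3.56, 1.01). Recql4, Dscc1 and Tonsl lie on chromosome 15, and with chromosome medians removed they stood at 0.60, 0.54 and 0.42 while Fancg stood at 1.26. The 4 lowest were Ercc1, a nuclease subunit of nucleotide excision repair (36.3 ± 0.97 to 18.7 ± 0.68 CPM, -0.96), the Fanconi core gene Fancf (11.7 ± 0.47 to 6.11 ± 0.84, -0.94), the mismatch repair gene Mlh3 (9.15 ± 0.95 to 4.85 ± 0.68, -0.91) and the recombination gene Xrcc3 (14.7 ± 0.29 to 8.48 ± 0.74, -0.79). Mlh3 and Xrcc3 lie on chromosome 12, and with chromosome medians removed they stood at -0.47 and -0.35, and Ercc1 and Fancf at -0.95 and -0.93. These 8 genes were called in each of the 15 fits. The share with calls was highest among fork proteins, with 13 higher and 7 lower of 22, and among recombination genes 11 of 20 were higher and 5 lower. The loci of Pole2, Pms2, Donson and Atrip are merged with other genes, and Pole2 and Pms2 are among those called lower.

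Regulators of S-phase transcription were called lower more often than higher in Yme1l-/- cells. Of 20 tested, 12 were called lower (60%, against 34.1% of all loci) and 1 higher, with a median log2 fold change of -0.29 that was -0.12 with chromosome medians removed. E2f6, a repressor of the E2F family, was at 34.3, 34.5 and 32.2 CPM in WT and at 11.9, 10.7 and 10.03 CPM in Yme1l-/- cells, a fall by 1.63 ± 0.07 (adjusted p = 7.20e-09). E2f8, an atypical repressor, was at 59.6, 63.3 and 60.3 CPM in WT and at 30.8, 33.4 and 34.7 CPM in Yme1l-/- cells (-0.89 ± 0.06, adjusted p = 1.09e-07). Among the activators, E2f3 fell by 0.59 ± 0.05 (adjusted p = 1.38e-06) and E2f1 by 0.16 ± 0.05 (adjusted p = 0.00870), and E2f2 was not called at -0.06 ± 0.09 (adjusted p = 0.591). E2f4, which acts with the pocket proteins in repression, fell by 0.68, the pocket protein gene Rbl1 by 0.49, the dimerization partners Tfdp1 and Tfdp2 by 0.42 and 0.37, the atypical repressor E2f7 by 0.30, the S-phase activator Mybl2 by 0.29 and the phosphatase gene Cdc25a by 0.30.

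Genes for the kinases of S-phase entry were divided. Ccne2, which encodes cyclin E2, fell by 0.69 ± 0.09 (adjusted p = 0.000133) and Ccne1, for cyclin E1, was at 0.03 ± 0.05 (adjusted p = 0.646). Cdk2, for their kinase partner, was at 116.9, 118.9 and 120.0 CPM in WT and at 156.5, 164.4 and 169.2 CPM in Yme1l-/- cells, without overlap (0.46 ± 0.04, adjusted p = 3.44e-06). With chromosome medians removed, 2 regulators were called higher and 10 lower, and Tfdp1, Tfdp2 and Cdc25a lost their calls. E2f4 was then at -0.36 and E2f7 at -0.60. Cdk2, on chromosome 10, was then at 0.16 (adjusted p = 0.00753). Foxm1 (-0.37), whose locus is merged with other genes, and the pocket protein gene Rbl2 (0.17) were newly called. In the main fit they were at -0.03 and -0.15 (edgeR adjusted p = 0.612 and 0.0501), so Rbl2 changed direction. Proteins, their activity and the cell cycle distribution were not measured in these libraries.

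**Figure D5:**
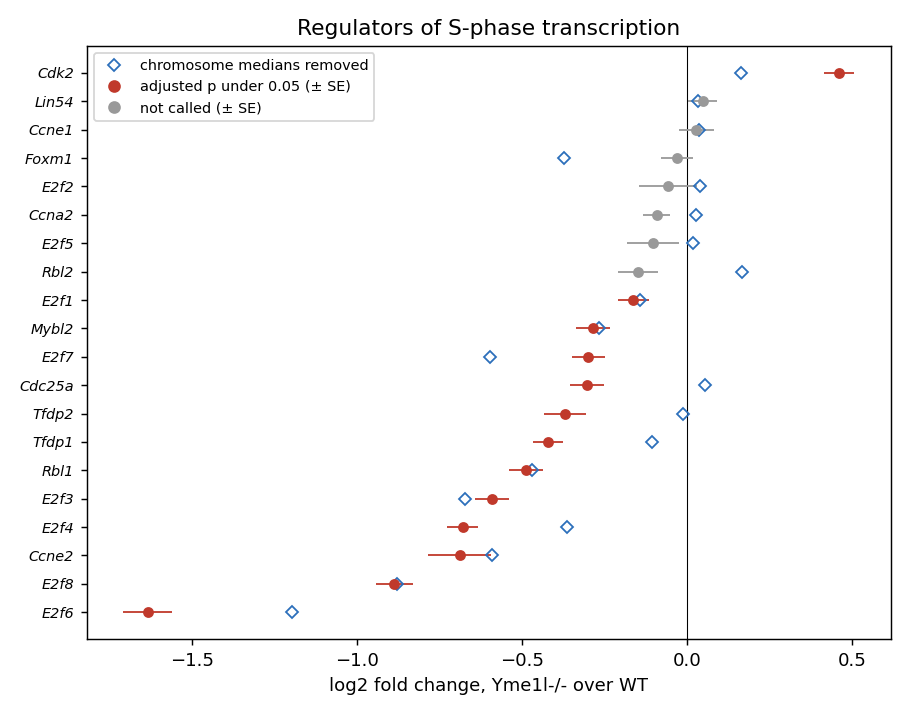
Circles give the log2 fold change of each of 20 regulators with its SE (x axis), red where the adjusted p was under 0.05, and open diamonds the value with chromosome medians removed. Points left of 0 are lower in Yme1l-/- cells, with E2f6 and E2f8 furthest, and Cdk2 is the only red point to the right.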

How the data were processed

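The authors sequenced stranded poly(A) libraries (TruSeq, read pairs), mapped them to mm10 (GRCm38, Ensembl 91) with HISAT 2.0.4, and used StringTie 1.3.3 and Cuffdiff 2.2.1 to assemble transcripts and compare genotypes. The deposited count table holds raw fragment counts per assembled locus, without normalization. The treatment of multiply mapped fragments and of strand in counting is not given in the sources used here. A deposited comparison table holds FPKM values, combined by the authors into 1 value per genotype, which were used for levels per transcript length, and loci, which gave positions. Its fold changes, p-values and q-values were not used. Groups were taken from the genotype labels. The members and gene lists were chosen with earlier results of these data known.

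The genotypes were compared with edgeR 4.0.16 in R 4.3.3 (filterByExpr with a minimum count of 10, TMM scaling, robust quasi-likelihood fit, two-sided test without covariates, Benjamini-Hochberg adjustment over 13867 loci, threshold 0.05). The SE is the size of the log2 fold change over the square root of F. The fit was checked on simulated counts. CPM is scaled with TMM factors (0.973 to 1.04). Ratios between members were taken per library on log2(CPM + 0.5) and tested by exact permutation. Gene positions and transcript lengths came from GENCODE M21 (a length for 83% of tested loci). Values per library were given, within each role, for the members with the highest and the lowest fold change and for those with a log2 fold change of at least 0.75 in size. Fancd2 and Brca2 were described in the same way after their values were seen. Of the other pathway genes, the 4 highest and 4 lowest called were named, and of the regulators each called gene. Ccne1, E2f2, Foxm1, Rbl2 and the merged loci of other pathway genes were named after their values were seen. Alternatives were RLE and upper-quartile scaling, DESeq2 1.42.0, other filters, the replicate number as a block, subtraction of chromosome medians and leaving out each library. Removal of the transcript length trend was added after seeing the data. Depth limits precision for members with few counts, and fragments copied by PCR were not identified.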

Additional observations from a re-analysis of the deposited data

How the results depend on the processing

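Between 8513 and 10051 loci were called over the 15 fits, 13 to 21 members higher and 6 to 11 lower. Of the single-gene values, the 8 fits that kept all libraries gave 273 with the same direction and call, 18 newly called, 14 no longer called and 15 reversed, and those without 1 library gave 216, 3, 15 and 6. Members called lower numbered 11 with the length trend removed. Regulators called higher numbered 2 with upper-quartile scaling and with chromosome medians removed. The median log2 fold change of members was 0.14 with upper-quartile scaling and 0.14 with chromosome medians removed, and between 0.0587 and 0.0928 without 1 library.

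Directions turned for members near 0 or on shifted chromosomes. With chromosome medians removed, Mcm5 was at 0.23, Gins3 at 0.18, Pola1 at 0.20, Rpa3 at -0.10 and Atr at 0.11. With upper-quartile scaling, Cdc45 was at 0.0235, Pola1 at 0.0448 and Blm at 0.0337. With the length trend removed, Gins4 was at -0.037, Pola1 at 0.0767, Pole at 0.0256, Rfc3 at -0.0778, Rfc4 at -0.13, Rfc5 at -0.0164 and Blm at 0.0269. Without 1 library, Pola1 ran from -0.0691 to 0.0218, Rfc4 from -0.0205 to 0.058 and Blm from -0.0641 to 0.02. The causes were not tested, beyond what each alternative subtracts.

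Whether equal replicate numbers pair the samples is not stated in the labels. Deviations of equally numbered cultures over all tested loci correlated at 0.14, -0.09 and 0.05, which cannot decide it. Of the 6 members over 6 kb, 5 were lowest in replicate 1 of both genotypes. A fit with the number as a block called 9794 loci, 20 members higher and 8 lower, at a median of 0.08, with Mcm3, Mcm4 and Gins4 newly called higher and Pole lower (edgeR adjusted p = 0.0390, 0.0435, 0.0434 and 0.0379). Gins1, Rpa3 and Gins3 had the lowest counts of the members. The largest SEs were those of Brca2 (0.14), Atm (0.09) and Rpa3 (0.08), and the part of depth in them was not tested.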
